A study of Sorghum bicolor with 24 samples.

Results

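The effect of polyethylene glycol (PEG) on transcript levels was compared between roots and shoots of sorghum seedlings, as the change in roots (PEG over H2O) minus the change in shoots (PEG over H2O). The comparison used the 12 RNA-Seq libraries labelled PEG or H2O, chosen by their labels from 24 in all. Its 4 groups had 3 libraries each: roots and shoots of seedlings given 20% PEG-8000, and roots and shoots of seedlings given water. The plants were of genotype BTx623, grew hydroponically in nutrient solution, were treated for 27 hours from day 8 and were harvested on day 9. The remaining 12 libraries, from plants given 20 µM abscisic acid (ABA) or NaOH as its control, entered the estimate of the spread and were set beside the PEG result. No group carried a transgene or mutation. Each library pooled RNA of several plants from 1 hydroponic experiment, so that the replicate number stands for the experiment, and a root library and the shoot library that shares its treatment and number were made from 1 set of plants, cut apart at the seed. A root library therefore holds the whole root system and a shoot library all organs above the seed, and in such bulk tissue fewer cells of a type and less RNA per cell cannot be told apart.

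PEG of high molecular weight stays outside the cell wall and lowers the water potential of the solution, so that water leaves the root without the salt effects of NaCl. Plants answer such osmotic stress in part through ABA, which inactivates protein phosphatases of the 2C class, frees SnRK2 kinases (named SAPK in rice) and activates bZIP factors that bind ABA-responsive elements. The targets known best are dehydrins and other late embryogenesis abundant (LEA) proteins, hydrophilic proteins that protect membranes and enzymes, and the enzymes of proline synthesis. Roots were in direct contact with the solution and shoots met the stress through the water they drew.

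The libraries held 12891583 to 22840341 reads on gene models. The tissue labels were checked on marker genes: 21 genes of chlorophyll-binding proteins, photosystems and the Rubisco small subunit averaged 9.89 to 49.7 normalized reads in roots and 159.6 to 182089 in shoots. Of 4 described nicotianamine synthase and nitrate transporter genes only Sb02g043670 was higher in roots than in shoots (4134 against 3056 reads), so that the root label is borne out by the low level of the shoot markers and not by markers of its own. The share of RNA of the other tissue was read from genes with at least 1000 reads in the NaOH libraries of 1 tissue. In the NaOH libraries of the other tissue they had at most 1% of that level. The 413 such genes of shoots stood at 0.129 to 0.162% of that level in PEG roots and at 0.116 to 0.135% in H2O roots. The 84 such genes of roots stood at 0.15 to 0.175% of that level in PEG shoots and at 0.0629 to 0.226% in H2O shoots. The choice of genes largely fixed a low share in advance, so that these values describe its size and are no test that it was low. H2O shoot replicate 2 stood apart. It differed at least 2-fold from the mean of its group mates in 1574 of the genes measured well in both tissues, against 1132 for H2O shoot replicate 1 and 20 to 362 for the other 10 libraries. Its difference from the NaOH shoots correlated across genes with the PEG effect computed from the other 2 H2O shoots (r = 0.492), whereas the same value was -0.115 for H2O shoot replicate 1 and -0.279 for replicate 3. Genes are not independent replicates, and no test was made of this. Counts over all genes are given with and without this library, and for the gene lists the counts that moved without it are given together. Its part in the tissue difference was otherwise not tested.

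Of 22667 genes with enough reads to test, 14282 were well measured, meaning a mean of at least 50 normalized reads over the 6 PEG and H2O libraries of roots and likewise of shoots. Normalized reads are reads scaled to a common library size. A gene was called where edgeR's quasi-likelihood test gave a p under 0.05 after Benjamini-Hochberg adjustment and the log2 difference was at least 1. The response to PEG depended on the tissue in 543 well measured genes, which is 3.8% of them. The difference was positive in 281 (1.97%), meaning a signed log2 change that was higher in roots. It was negative in 262 (1.83%), meaning a signed log2 change that was higher in shoots. A fall in roots alone therefore also gives a negative difference, and a fall in shoots alone a positive one. Among all 22667 genes tested the calls were 924, or 4.08%. In 419 of the 543 genes all 4 group means reached 50 reads, and in the other 124 at least 1 group lay below that.

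Without H2O shoot replicate 2 the number of calls was 1483, or 10.4% of the well measured genes, and most of the added calls were negative (539 positive, 3.77%, and 944 negative, 6.61%, in all). The 2 sets shared 516 genes, so that 27 of the 543 were called only with this library and 967 genes only without it. The sign of the difference was the same in both fits for all 543. The count also moved with whole experiments: it was 44 without the libraries of replicate 1, 1022 without those of replicate 2 and 234 without those of replicate 3. Scaled by library size alone, without TMM factors, the median difference over all well measured genes shifted to -0.20, against -0.01 with them, and 652 calls split into 188 positive and 464 negative. No gene among the 543 changed sign under any of the alternatives that were run. Of these, 515 genes (271 positive and 244 negative) were called in both fits and had the same sign of the difference in each of the 3 replicate numbers. The genes were called on these same libraries, so that agreement of sign is nearly fixed by the choice and is no separate evidence. In all, 541 of the 543 had the same sign in the 3 numbers. The genes named one by one in what follows were taken from these 515 unless stated otherwise. Of the 16 with the largest differences, 8 of each sign, only 2 (Sb10g019360 and Sb09g018420) had all 4 group means at 50 reads or more, so that the size of the other differences rests in part on low groups.

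Within a tissue, PEG changed 423 well measured genes in roots (2.96%) and 680 in shoots (4.76%). In roots 260 rose (1.82%) and 163 fell (1.14%), and in shoots 393 rose (2.75%) and 287 fell (2.01%). Without H2O shoot replicate 2 the number in shoots was 1475 (10.3%), of which 980 rose (6.86%) and 495 fell (3.47%). The 2 tissues moved many genes together: 134 genes were called in both, and 121 of these had the same sign, 98 higher and 23 lower under PEG. Only 17 of the 121 had an interaction call. Across the well measured genes the log2 changes in roots and in shoots, which share no library, had a Pearson r of 0.411 and a Spearman rho of 0.0937, a value that describes these libraries only, since genes are not independent replicates and both tissues came from the same plants. The plot of the change in roots against the change in shoots shows the called genes as arms along the axes.

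**Figure D1:**
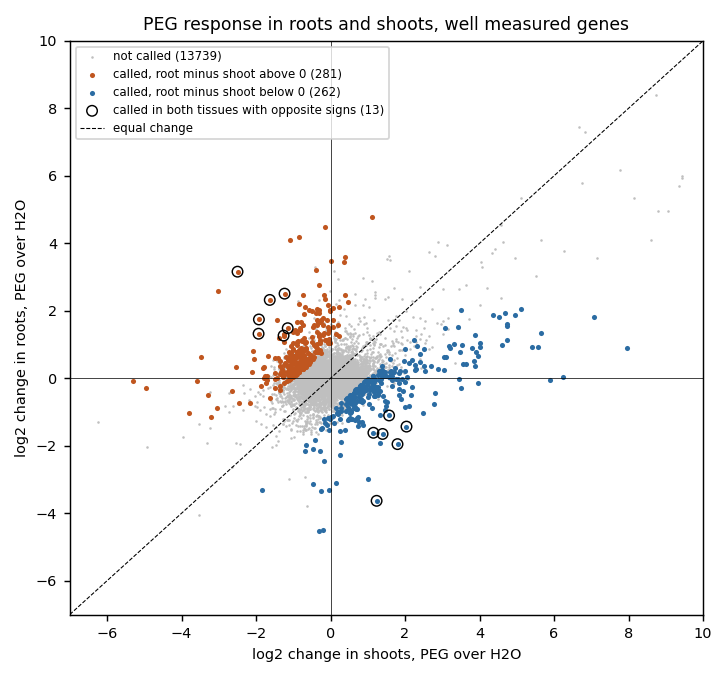
Log2 change under PEG in roots (vertical axis) against shoots (horizontal axis) for 14282 well measured genes, 1 point each. The 281 genes with a positive and the 262 with a negative interaction call lie above and below the dashed line of equal change, and 13 circled genes changed in both tissues with opposite signs.

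The 543 genes fell into few kinds. In 121 genes a rise in shoots was called and no change in roots, and in 85 a fall in shoots and no change in roots. A rise in roots alone was called in 77 and a fall in roots alone in 46. Another 17 changed in both tissues in the same direction by different amounts, 13 changed in both in opposite directions, and 184 passed the test of the difference without passing in either tissue alone. Most genes called in 1 tissue and not in the other had no interaction call: of 289 genes called in roots and not in shoots 123 had an interaction call, and of 546 called in shoots and not in roots 206 had one.

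Of the 262 genes with a negative difference, 121 rose in shoots alone, 46 fell in roots alone, 16 changed in both tissues in the same direction, 6 in opposite directions, and 73 had no change called in either. The gene with the most negative difference was Sb09g018420 (chromosome 9, 46038022 to 46039089 in the sbi1 assembly), described as dehydrin DHN1. It had 2973, 2597 and 4938 normalized reads in PEG roots, against 1741, 1773 and 2084 in H2O roots, and 11503, 20968 and 13104 in PEG shoots, against 21.9, 102.6 and 57.4 in H2O shoots. The groups did not overlap in either tissue, but the step in shoots was of another order: the log2 change was 0.91 ± 0.45 (SE; adjusted p = 0.284) in roots and 7.95 ± 0.63 (adjusted p = 8.07e-08) in shoots, a difference of -7.04 ± 0.73 (adjusted p = 1.59e-05). The gene was read far more in roots than in shoots of H2O plants, and less in roots than in shoots of PEG plants.

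Sb03g030050 (chromosome 3, 58335443 to 58340349) is described as the ABRE-binding factor BZ-1, a bZIP protein of the kind that turns on ABA-responsive genes. It had 64.2, 62.4 and 291.5 reads in PEG roots, against 43.45, 36.7 and 42.0 in H2O roots, and 853.8, 469.7 and 1489 in PEG shoots, against 8.42, 5.55 and 6.75 in H2O shoots. It rose in both tissues, by a log2 change of 1.81 ± 0.47 in roots and 7.08 ± 0.63 in shoots, and PEG root replicate 3 stood well above the other PEG roots. The difference was -5.27 ± 0.81 (adjusted p = 0.000649). Sb03g026070, a protein phosphatase 2C (chromosome 3, 52451500 to 52456092), had 632.5 to 739.7 reads in PEG roots, against 523.6 to 605.2 in H2O roots, and 1504 to 2529.5 in PEG shoots, against 358.6 to 475.6 in H2O shoots, with a difference of -2.01 ± 0.21 (adjusted p = 1.6e-05). The SnRK2-type kinase SAPK3 (Sb01g028760) differed by -1.80 ± 0.26 (adjusted p = 0.00042). Its level was 1226 to 1327 reads in PEG roots, against 1069.6 to 1118.5 in H2O roots, and 280.6 to 496.2 in PEG shoots, against 60.6 to 119.3 in H2O shoots.

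The gene for delta-1-pyrroline-5-carboxylate synthetase, P5CS, the enzyme that commits glutamate to proline (Sb03g039820, chromosome 3, 67459017 to 67465926), showed the tissue difference with little spread. It had 1938, 2170 and 2747 reads in PEG roots, against 1103, 1166 and 1149 in H2O roots, and 9086, 11184 and 11309 in PEG shoots, against 946.1, 1065 and 1180 in H2O shoots. Its H2O levels in roots and in shoots overlapped. P5CS rose in both, by 1.004 ± 0.17 on the log2 scale in roots and 3.31 ± 0.19 in shoots, and the difference of -2.30 ± 0.25 (adjusted p = 2.13e-05) was the same without H2O shoot replicate 2 (-2.30).

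Other genes that rose in shoots and were not called in roots included a heat shock 70 kDa protein (Sb03g039360), a chaperone, with 1748 to 1931 reads in PEG roots, against 1076 to 1451 in H2O roots, and 2965 to 5122 in PEG shoots, against 228.9 to 764.0 in H2O shoots. A beta-amylase, which breaks down starch (Sb01g047500), differed by -2.69 ± 0.44 (adjusted p = 0.00101), with a log2 change of 3.47 in shoots. A lipoxygenase, of the family that opens the path to jasmonate (Sb01g011050), had 21799 to 28208 reads in PEG roots, against 22932 to 32661 in H2O roots, and 12628 to 15460 in PEG shoots, against 3392 to 5939 in H2O shoots (difference -1.70 ± 0.32, adjusted p = 0.00324). A member of the heat stress factor family (Sb04g008300), a NAC factor (Sb08g001940), a bHLH factor (Sb09g006220) and the G-box binding factor 1 (Sb09g028990), all regulators of transcription, differed by -4.64, -3.12, -3.48 and -1.64, each with groups of shoots apart. The heat stress factor, NAC and bHLH genes averaged only 12.9, 27.9 and 15.8 reads in H2O shoots. They passed the limit on reads in shoots only through the PEG shoots, so that their place is a description. The AP2/ERF gene Sb02g039300 and the MYB-related gene Sb07g003320 had negative differences of another kind, since they fell in roots (log2 changes of -1.40 and -1.48) while the groups overlapped in shoots. Among the most negative were also genes with little known of them: Sb04g023920 (-6.20) and Sb03g006690 (-5.95), at most 16.6 and 5.63 reads in any H2O shoot library, and Sb03g037720, a permatin precursor of the thaumatin-like defence proteins (-4.48), which in PEG shoots ranged from 274.7 to 3693 reads.

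Sb10g021330, with no description, also met the limits (-4.29 ± 1.26, adjusted p = 0.0469), but on few root reads. It had 7.13, 6.42 and 3.78 reads in PEG roots, against 119.2, 264.6 and 4.82 in H2O roots, and 370225 to 480245 in PEG shoots, against 409061 to 558755 in H2O shoots. The root groups overlapped, and all its root levels were below the share of shoot RNA found in root libraries, so that its own level in roots cannot be told from that RNA.

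**Figure D2:**
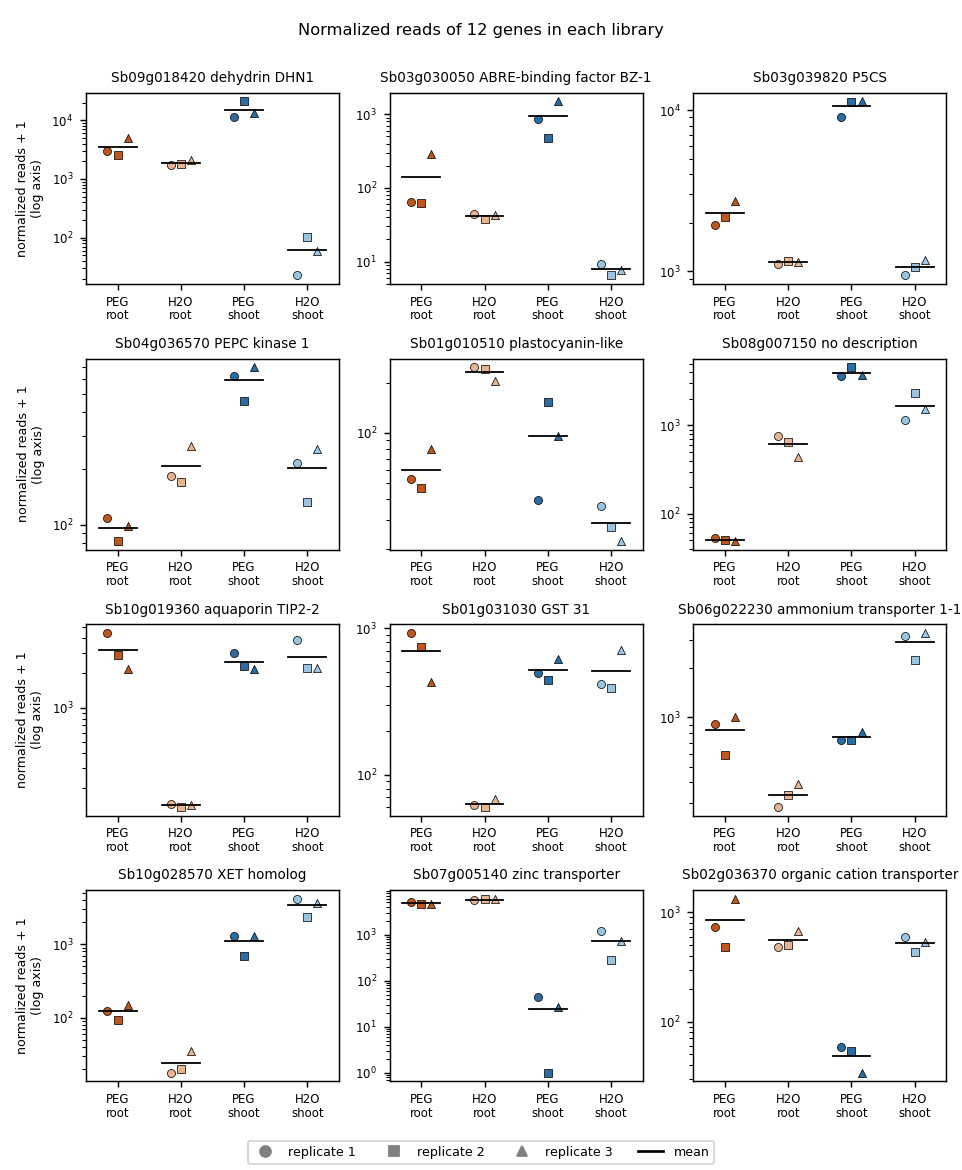
Normalized reads plus 1 (log axis) of 12 named genes in each of the 12 libraries, with marker shapes for the replicate numbers and a bar at the group mean. In the top row the shoot groups are far apart and the root groups closer, in the second row PEG moved roots down and shoots up, and in the lower rows roots rose, shoots fell, or both.

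A set of 13 genes changed past both limits in both tissues with opposite signs, 7 of them higher in PEG roots and lower in PEG shoots and 6 the other way round. In 5 of the 13 all 4 group means reached 50 reads, and the others passed the limit on reads with a group below it. All 13 kept an interaction call without H2O shoot replicate 2, and all had the same sign in the 3 replicate numbers. This sets them little apart, since 516 of all 543 called genes did the first and 541 the second. With the replicate number as a block in the fit, which pairs libraries of the same experiment, 22 genes met these limits. The phosphoenolpyruvate carboxylase kinase 1 gene (Sb04g036570, chromosome 4, 66367060 to 66368557), whose product keeps phosphoenolpyruvate carboxylase active, had 108.0, 80.8 and 97.6 reads in PEG roots, against 180.5, 168.5 and 263.3 in H2O roots, and 628.6, 461.3 and 695.9 in PEG shoots, against 213.8, 131.7 and 254.3 in H2O shoots. The groups did not overlap within either tissue: it fell in roots by 1.10 ± 0.22 on the log2 scale and rose in shoots by 1.57 ± 0.22 (difference -2.67 ± 0.31, adjusted p = 5.17e-05). Its H2O levels in roots and in shoots overlapped. The descriptions name 3 genes of this enzyme or its kinases, looked up after their values were seen and described only because the study called them. The other 2 also had a negative call: phosphoenolpyruvate carboxylase 2 (Sb02g021090, difference -1.82) and its kinase 3 (Sb04g026490, difference -2.40).

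The ammonium transporter 1-1 gene (Sb06g022230, chromosome 6, 51467178 to 51475592), for uptake of ammonium into cells, went the other way. It had 912.6, 591.0 and 1001 reads in PEG roots, against 281.9, 331.4 and 388.0 in H2O roots, and 730.1, 723.8 and 814.4 in PEG shoots, against 3131, 2243 and 3283 in H2O shoots. The transcript was much lower in roots than in shoots of H2O plants and its levels in the 2 tissues of PEG plants overlapped, with a difference of 3.25 ± 0.46 (adjusted p = 0.000295). The xyloglucan endo-transglycosylase homolog Sb10g028570 (chromosome 10, 58369250 to 58370440), of a family that cuts and rejoins wall polymers, had 123.2, 92.7 and 146.7 reads in PEG roots, against 16.7, 18.8 and 34.5 in H2O roots, and 1293, 697.3 and 1309 in PEG shoots, against 4155, 2377 and 3703 in H2O shoots (difference 3.95 ± 0.53, adjusted p = 0.000197). Here the tissues stayed apart under PEG and drew nearer.

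The gene for a protein with a plastocyanin-like domain, a copper-binding fold (Sb01g010510), fell in roots by 1.95 ± 0.36 on the log2 scale and rose in shoots by 1.80 ± 0.41 (difference -3.75 ± 0.54, adjusted p = 0.000346), and a Bowman-Birk serine protease inhibitor, of a family induced by wounding (Sb05g026700), fell in roots by 1.43 ± 0.34 and rose in shoots by 2.04 ± 0.41. Sb08g007150, which has no description (chromosome 8, 12088556 to 12093698), fell the most in roots of the opposite-direction genes. It had 52.0, 48.6 and 47.8 reads in PEG roots, against 768.7, 641.2 and 432.8 in H2O roots, and 3603, 4575.5 and 3696 in PEG shoots, against 1158, 2353 and 1526 in H2O shoots (difference -4.87 ± 0.53, adjusted p = 2.68e-05). Sb02g025930, described only as an uncharacterized protein, rose in roots by 2.51 ± 0.36 and fell in shoots by 1.24 ± 0.36. The gene with the most positive difference of all, Sb01g046730, a protein with an FAD-binding domain, also met the limits for opposite signs. It passed the limit on reads in roots only through the PEG roots, where it was high, so that its place is a description. It had 133.4, 123.0 and 104.5 reads in PEG roots, against 11.1, 12.2 and 15.9 in H2O roots, and 204.2, 85.5 and 229.9 in PEG shoots, against 1018, 237.1 and 1687 in H2O shoots (difference 5.66 ± 1.20, adjusted p = 0.00801). The lowest of its H2O shoots was replicate 2, and it was still above the PEG shoots.

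Of the 281 genes with a positive difference, 77 rose in roots alone, 85 fell in shoots alone, 7 did both, 1 changed in both tissues in the same direction, and 111 had no change called in either tissue. The tonoplast aquaporin gene TIP2-2 (Sb10g019360, chromosome 10, 41279125 to 41280840), a water channel of the vacuole membrane, rose in roots alone. It had 4440, 2847 and 2154 reads in PEG roots, against 144.8, 135.6 and 140.6 in H2O roots, and 2966, 2299 and 2172 in PEG shoots, against 3897, 2213 and 2206 in H2O shoots. PEG roots reached the level of the shoots, where the groups overlapped (log2 change 4.49 ± 0.62 in roots and -0.16 ± 0.52 in shoots, difference 4.65 ± 0.79, adjusted p = 0.00148). The P450 gene Sb01g007420 had 463.5 to 632.7 reads in PEG roots, against 24.5 to 42.0 in H2O roots, with overlapping shoot groups (difference 5.19 ± 0.71, adjusted p = 0.000221). The Kelch repeat F-box gene Sb10g023140 (5.03 ± 1.18, adjusted p = 0.0145) was uneven among replicates, with 73.3 and 67.9 reads in PEG root replicates 1 and 2 and 791.3 in replicate 3, against 12.3 to 23.4 in H2O roots. Glutathione S-transferase GST 31 (Sb01g031030, chromosome 1, 53604758 to 53605824), of the enzymes that join glutathione to reactive compounds, had 923.8, 743.4 and 426.2 reads in PEG roots, against 61.3, 59.3 and 66.9 in H2O roots, and 495.0, 439.6 and 612.1 in PEG shoots, against 415.8, 391.0 and 711.1 in H2O shoots. It rose in roots by 3.47 ± 0.27 and its shoot groups overlapped (difference 3.45 ± 0.35, adjusted p = 1.59e-05).

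Other named genes, 3 of them for transport or oxidation, fell in shoots and had no change called in roots. A zinc transporter gene (Sb07g005140, chromosome 7, 6930171 to 6933232) had 5091, 4660 and 4562 reads in PEG roots, against 5554, 5840 and 5951 in H2O roots, and 43.3, 0 and 25.8 in PEG shoots, against 1177, 277.3 and 716.7 in H2O shoots. The log2 change was -0.28 ± 0.55 in roots and -4.96 ± 0.74 in shoots (difference 4.68 ± 0.92, adjusted p = 0.00442). Its levels in H2O shoots were far above the share of root RNA found in shoot libraries. A polyamine oxidase gene (Sb07g005780) had 3442 to 3677 reads in PEG roots, against 3373.5 to 4223 in H2O roots, and 0 to 9.80 in PEG shoots, against 67.3 to 400.6 in H2O shoots (difference 5.21 ± 1.20, adjusted p = 0.0132). An organic cation transporter gene (Sb02g036370) had 483.7 to 1328 reads in PEG roots, against 479.1 to 676.1 in H2O roots, and 33.0 to 56.9 in PEG shoots, against 436.8 to 595.9 in H2O shoots (difference 4.09 ± 0.56, adjusted p = 0.000248). A chitinase gene (Sb09g001210), for an enzyme that attacks fungal walls, had 47.7 to 186.3 reads in PEG roots, against 10.4 to 24.8 in H2O roots (adjusted p = 0.0889), and fell to 43.3 to 126.5 in PEG shoots, against 199.7 to 1030 in H2O shoots (difference 5.59 ± 1.18, adjusted p = 0.00771).

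**Figure D3:**
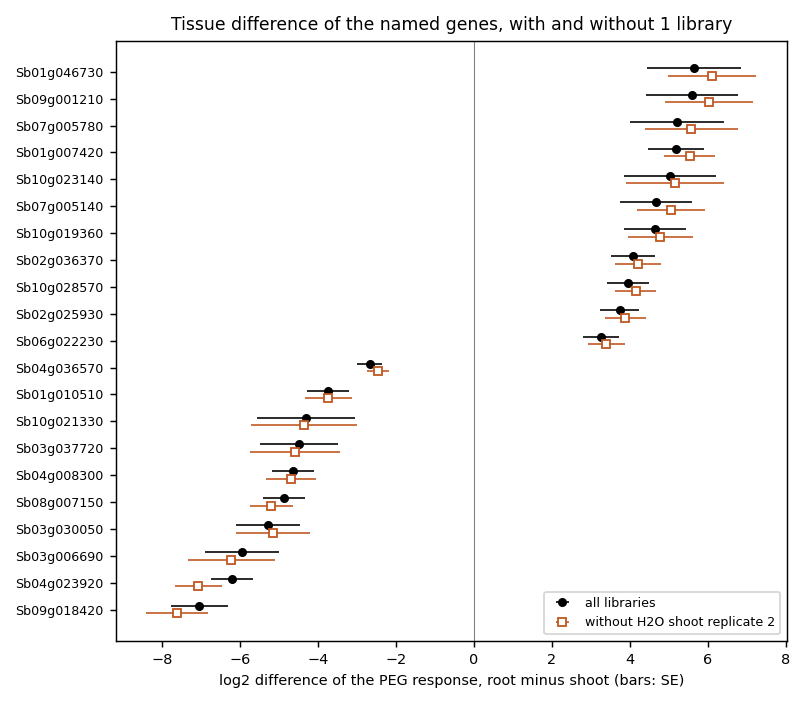
Log2 difference of the PEG response (root minus shoot, with its SE) of the genes with the largest differences and of the opposite-direction genes, with all libraries (filled) and without H2O shoot replicate 2 (open). The 2 values of each gene lie on the same side of 0, from -7.04 for Sb09g018420 to 5.66 for Sb01g046730 with all libraries.

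Gene groups were read from 31 lists built on words in the gene descriptions. Descriptions were at hand for 1957 of the 14282 well measured genes, and they come from lists of genes that the study called on these same samples, so that the described genes were called more often (17.5%) and the lists are not independent evidence of any direction. For most lists the counts on both sides were small. The median difference was -0.01 over all well measured genes and -0.08 over the described ones. The median log2 change over all described well measured genes was 0.126 in roots and 0.124 in shoots. Of these 1957 genes, 157 had a positive and 186 a negative call, and 225 and 336 without H2O shoot replicate 2. In roots 213 of them rose and 111 fell, and in shoots 330 rose and 169 fell. The list counts have to be read beside these. The plot of list medians sets each list's median in roots beside that in shoots.

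**Figure D4:**
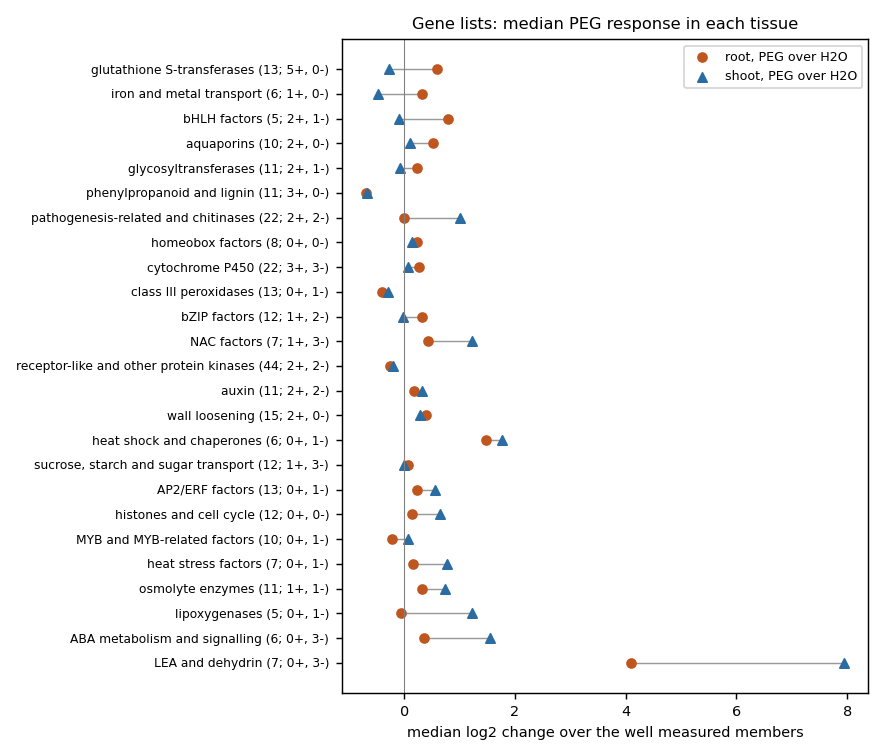
Median log2 change under PEG in roots (circles) and in shoots (triangles) of the well measured members of each list with 5 or more such members, ordered by the median difference. Beside each name stand the number of members and the numbers called with a positive (+) and a negative (-) difference; glutathione S-transferases have 5 and 0, LEA and dehydrin genes 0 and 3.

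Glutathione S-transferases were on the positive side. Of 13 well measured members 5 had a positive and none a negative difference, and the median was 1.18 (0.595 in roots and -0.271 in shoots). In roots 5 rose. Without H2O shoot replicate 2 the count was 7 positive and none negative, against 225 and 336 of the 1957 described well measured genes. Besides GST 31, GST 21 (Sb03g045840) had 912.3 to 1129 reads in PEG roots, against 239.5 to 396.3 in H2O roots, and 172.2 to 307.4 in PEG shoots, against 201.1 to 424.2 in H2O shoots (difference 2.11 ± 0.34, adjusted p = 0.00101). Without the libraries of replicate 1 the count was 1 positive and none negative, with 2 rises in roots and a median difference of 0.856. Several members lie side by side on chromosome 1, and the study describes its counted reads as uniquely mapped, so that reads shared by close copies would be missing from these values.

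Aquaporins had 2 positive calls among 10 members, TIP2-2 and NIP3-1 (Sb01g017230, difference 1.12 ± 0.25, adjusted p = 0.0117), a channel of a family that also carries small solutes such as boric acid. Calls among wall genes were 2 of 15 expansins and related wall-loosening genes, a list that does not hold Sb10g028570, alpha-expansin 1 (Sb03g038290, 1.48 ± 0.33) and expansin-A4 (Sb09g023440, 1.17 ± 0.29), and 3 of 11 phenylpropanoid and lignin genes, among them 2 laccases, which polymerize lignin (Sb09g022510, 2.40 ± 0.49, and Sb03g039530, 1.16 ± 0.32), all positive with all libraries, whereas without H2O shoot replicate 2 each list also had 1 negative call. Laccase Sb09g022510 had 101.9 to 175.0 reads in PEG roots, against 42.3 to 66.9 in H2O roots, and 254.1 to 488.3 in PEG shoots, against 723.9 to 898.5 in H2O shoots. The OsCslE1-like cellulose synthase-like gene (Sb02g027570) differed by 1.12 ± 0.23. A class III peroxidase, the 1 call among 13, fell in both tissues and more in roots (Sb02g042860, log2 changes -3.30 and -1.85, difference -1.45 ± 0.39).

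Genes of carbohydrate use had calls on both sides. Of 12 genes of sucrose, starch and sugar transport, 3 had a negative difference (beta-amylase, sucrose synthase 3 and a subunit of glucose-1-phosphate adenylyltransferase) and 1 a positive one, the cell wall invertase Sb04g021810, which splits sucrose outside the cell. The invertase had 2095 to 2734 reads in PEG roots, against 1589 to 1824 in H2O roots, and 483.8 to 768.4 in PEG shoots, against 1126 to 1297 in H2O shoots (difference 1.499 ± 0.25, adjusted p = 0.00126). Among 11 osmolyte enzymes, P5CS was negative and a trehalose-phosphatase positive (Sb04g027650, log2 changes of 0.33 in roots and -1.07 in shoots). Of 6 well measured genes of ABA metabolism and signalling 3 were called, all negative (median difference -1.57), being 2 phosphatases of the 2C class and SAPK3. NAC factors had 1 positive call (Sb07g005610, 1.51 ± 0.26) and 3 negative calls among 7, and cytochrome P450 genes 3 and 3 among 22, with P450 724B1 (Sb06g019600, an enzyme of brassinosteroid synthesis in rice) at 2.03 ± 0.28 and Sb09g005370 at -2.82 ± 0.43. The protein kinase list had 2 and 2 among 44. The smallest p among them was that of Sb01g042010 (-1.98 ± 0.25), by its description an inositol trisphosphate 5/6-kinase and not a protein kinase, which the words of the list took in. The auxin list had 2 and 2 among 11, with IAA6 (Sb03g034170) at -1.41 ± 0.33 and the auxin-repressed ARP1 (Sb01g016810) at 2.04 ± 0.52. Pathogenesis-related proteins and chitinases had 2 and 2 among 22, with PR10c (Sb01g037920) at -3.51 ± 0.62. PR10c averaged 18.95 reads in H2O shoots and 101.6 in PEG shoots, and passed the limit on reads in shoots only through the latter. Further calls were bHLH gene Sb01g006190 (1.70 ± 0.35), bZIP gene Sb03g040970 (-1.41 ± 0.32), the cis-zeatin O-glucosyltransferase Sb06g012280, which stores cytokinin (1.64 ± 0.33), and the glucosyltransferase Sb02g038560 (-1.78 ± 0.37). No homeobox, gibberellin or WRKY gene was called among 8, 3 and 1 well measured members.

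Many of these list counts moved with the libraries used. Without H2O shoot replicate 2 the calls over the 1957 described well measured genes were 225 positive and 336 negative. The positive and negative calls without H2O shoot replicate 2 were 6 and 4 for cytochrome P450 genes, 4 and 5 for protein kinases, 3 and 5 for pathogenesis-related proteins and chitinases, and 0 and 3 for both class III peroxidases and lipoxygenases. They were 2 and 1 for aquaporins and for cellulose synthase-like genes, 1 and 2 for NAC factors, osmolyte enzymes, AP2/ERF factors and heat shock proteins, 0 and 2 for heat stress and bZIP factors, 3 and 2 for glycosyltransferases, 1 and 1 for cytokinin genes, 2 and 3 for the auxin list, 1 and 0 for WRKY genes and 0 and 1 for homeobox genes. With the replicate number as a block they were 5 and 4 for cytochrome P450 genes, 2 and 4 for protein kinases, 3 and 4 for pathogenesis-related proteins and chitinases, 3 and 1 for aquaporins, 1 and 2 for osmolyte enzymes, 2 and 3 for sucrose, starch and sugar transport, 3 and 1 for glycosyltransferases, 1 and 1 for lipoxygenases, AP2/ERF factors and cytokinin genes, 0 and 2 for MYB genes and 1 and 0 for WRKY genes. Without the libraries of replicate 1 no list had more than 1 call of either sign.

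The LEA and dehydrin list moved with single libraries. All 7 well measured members rose in shoots and 4 rose in roots, and 3 had an interaction call, all negative (median log2 change 4.10 in roots and 7.95 in shoots). Of the 1957 described well measured genes 330 rose in shoots and 213 in roots. The second dehydrin with a call, Sb04g032250, had 2519, 2141 and 4791 reads in PEG roots, against 1640, 1838 and 1998 in H2O roots, and 9753, 5899 and 9995 in PEG shoots, against 267.7, 1051 and 379.2 in H2O shoots (difference -3.13 ± 0.57, adjusted p = 0.00252). In all 7 genes PEG root replicate 3 was the highest PEG root library. The LEA gene Sb09g027110 had 179.3, 176.2 and 3227 reads in PEG roots, against 24.5, 69.7 and 22.75 in H2O roots, and 11556, 10511 and 10964 in PEG shoots, against 3.37, 54.1 and 4.50 in H2O shoots. Its difference of -4.10 did not pass (adjusted p = 0.101). This gene passed the limit on reads in shoots only through the PEG shoots. A gene that is low in H2O shoots enters the list only where PEG raises it, so that the count of rises in shoots is partly fixed by that limit. Without PEG root replicate 3, 5 members had a negative call and 2 rose in roots, with a median root change of 1.67. Without H2O shoot replicate 2, the negative calls were also 5. Without the libraries of replicate 1 there was 1.

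Histones package DNA, and their transcripts are made chiefly in cells that copy it. None of the 12 well measured histone H2A, H2B and H4 genes had an interaction call with all libraries (median difference -0.541), and all 12 had a negative call without H2O shoot replicate 2. Of the 1957 described well measured genes 336 had a negative call without that library. Histone H2A gene Sb01g000950 had 1026, 903.1 and 956.3 reads in PEG roots, against 802.1, 945.3 and 1064 in H2O roots, and 637.3, 833.4 and 530.1 in PEG shoots, against 74.1, 1040 and 176.6 in H2O shoots. Its difference was -0.59 (adjusted p = 0.702) with all libraries and -2.34 (adjusted p = 0.00552) without H2O shoot replicate 2. In all 12 the other 2 H2O shoot libraries lay below every PEG shoot library while replicate 2 did not. Whether the calls without this library show the effect of PEG or the state of that library was not tested.

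**Figure D5:**
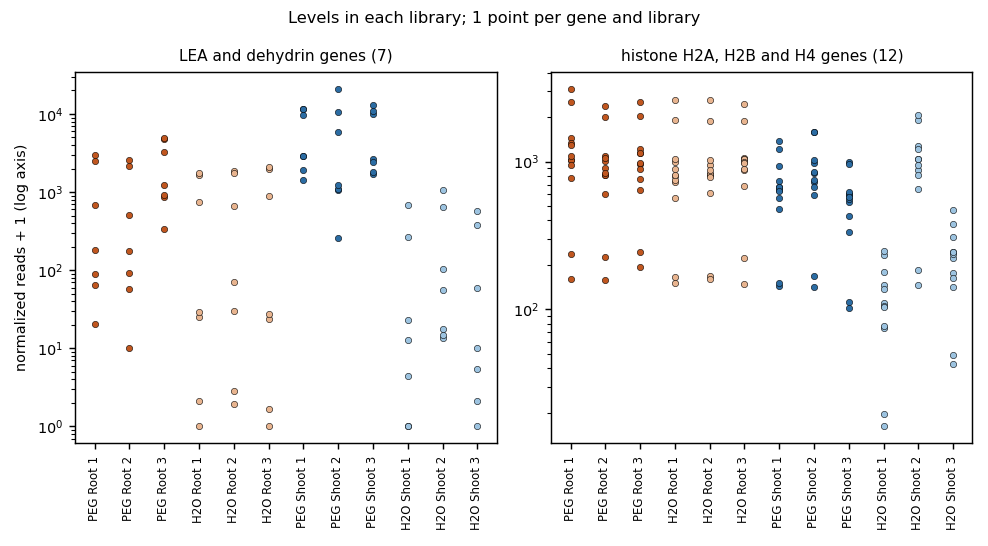
Normalized reads plus 1 (log axis) of 7 LEA and dehydrin genes (left) and 12 histone genes (right), 1 point per gene in each library. PEG root replicate 3 is high for the LEA genes, and H2O shoot replicate 2 is high for the histones beside replicates 1 and 3 of its group.

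Genes that responded alike in the 2 tissues were sought among the 121 called in both with the same sign. The 4 with the interval of the difference closest to 0 all rose. Lysine-ketoglutarate reductase/saccharopine dehydrogenase, the enzyme that breaks down lysine (Sb04g035220), had 1245, 1395 and 1506 reads in PEG roots, against 371.0, 361.6 and 432.2 in H2O roots, and 1881, 2706 and 2197 in PEG shoots, against 661.6, 543.5 and 809.0 in H2O shoots. Its log2 change was 1.83 ± 0.22 in roots and 1.75 ± 0.22 in shoots, and the 95% interval of the difference ran from -0.55 to 0.71. The other 3 have no informative description, and their intervals were those of Sb03g005240 (interval -0.48 to 0.27), Sb02g003720 (-0.50 to 0.39) and Sb05g021590 (-0.65 to -0.07). These intervals bound the difference and do not show that it was 0, and the last leaves 0 out. At the limit for a call, Sb04g002360, a bZIP factor like HBP-1a, was the called gene with the smallest difference (1.004 ± 0.20), and Sb09g002690 was the one just outside (0.9998 ± 0.29, adjusted p = 0.0471).

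The level of the called genes in the 2 tissues was read from the NaOH libraries, which the PEG contrast does not use. The 281 genes with a positive difference leaned to shoots: the median of their root level minus shoot level was -1.66 on the log2 scale, and 42.7% of them were at least 4-fold higher in NaOH shoots, against 7.93% of all well measured genes. The 262 genes with a negative difference leaned to roots (median 0.82), and 26% of them were at least 4-fold higher in NaOH roots, against 4.23% of all. The median over all well measured genes was 0.096. The limit on reads averages PEG and H2O libraries and so takes in a gene that is low in 1 tissue where PEG raises it there, which can add to this pattern. Among the 13847 well measured genes that also reached 50 reads in both NaOH groups, a limit set after the data were seen, 36.8% of 247 positive genes were at least 4-fold higher in NaOH shoots, against 7.46% of all, and 18.8% of 207 negative genes were at least 4-fold higher in NaOH roots, against 3.86% of all.

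ABA gave a second view of the same genes in separate libraries. The difference of the ABA response (ABA over NaOH in roots minus ABA over NaOH in shoots) was called in 1157 well measured genes, or 8.1% (3.78% positive and 4.32% negative). Of the 543 genes 202 were among these, which is 37.2% of the PEG calls and 17.5% of the ABA calls, and 170 of the 202 had the same sign under both agents. The median ABA difference was 0.47 for the genes positive under PEG and -0.76 for those negative under PEG, and -0.023 over all well measured genes. The agents parted for single genes. P5CS (Sb03g039820), with a PEG difference of -2.30, had an ABA difference of -0.28 (adjusted p = 0.525), since ABA raised it by 2.85 in roots and 3.13 in shoots on the log2 scale. Dehydrin DHN1 (Sb09g018420) rose under ABA by 5.66 in roots and 7.80 in shoots, and its ABA difference was -2.13 (adjusted p = 0.0397). The factor Sb03g030050 rose under ABA by 6.58 in roots and 6.41 in shoots. GST 31 (Sb01g031030) and TIP2-2 (Sb10g019360), which rose under PEG in roots, had ABA changes in roots of 0.27 (adjusted p = 0.5) and -0.80 (adjusted p = 0.293). The phosphoenolpyruvate carboxylase kinase 1 gene Sb04g036570 also had an ABA difference (-3.01, adjusted p = 1.69e-06), and so did the plastocyanin-like gene Sb01g010510 (-4.27, adjusted p = 1.57e-05). Among all well measured genes 10.8% were called under ABA in roots (4.51% rose and 6.25% fell) and 7.25% in shoots (3.33% rose and 3.91% fell). Of the 121 genes with a rise called under PEG in shoots alone, 54 rose under ABA in roots and 82 in shoots. Of the 85 with a fall called in shoots alone, 48 fell under ABA in shoots. Of the 77 with a rise called in roots alone, 23 rose under ABA in roots, and of the 46 with a fall called in roots alone, 24 fell.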

How the data were processed

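Poly-A RNA was sequenced on a Genome Analyzer IIx. The authors trimmed reads to 50 bases, used ELAND_rna for alignment to sbi1, the sorghum genome build, and made per-gene values on the Sbi1.4 models with CASAVA 1.6, setting chloroplast, mitochondrial and repeat reads aside. The libraries did not mark strand, so that overlapping genes on both strands cannot be told apart. The deposited raw count is a count of aligned bases on exons (most values are multiples of 50), so that reads were taken as bases divided by 50 and rounded, and the test planned for read counts was kept. The authors' sequencing depth, a coverage signal (bases over exon length), was used only for the 2X alternative. The authors' RPKM entered no test.

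All 24 libraries (34145 gene models) were fitted in R 4.3.3 with edgeR 4.0.16 (TMM scaling, low-count filter over 8 groups, robust quasi-likelihood test, no block, two-sided), which left 22667 genes and a common biological coefficient of variation of 0.205. P-values were adjusted by Benjamini-Hochberg over all of them. SE is the absolute log2 difference over the square root of F. Intervals are 95%. The 12 PEG and H2O libraries held 12891583 to 22840341 reads. On data simulated for this contrast over 22667 genes, 80 of 100 genes with a log2 difference of 1.5 and 100 of 100 with 3 were called, and 7 of 13997 unchanged well measured genes. The simulation gave all genes the same spread and drew libraries independently. It held no effect shared within an experiment and no library that stood apart, so that these rates are not error rates of the real data.

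Replicate numbers pair the libraries, since each number is 1 hydroponic experiment and root and shoot came from the same plants. Deviations from group means correlated between PEG and H2O libraries of the same number at 0.0237 to 0.328 in roots and 0.406 to 0.613 in shoots, and between root and shoot of the same plants at 0.00707 to 0.21. The main fit had no block, so that its p-values rest on the spread of libraries within the 8 groups and do not use this pairing. They treat the libraries as independent. With the replicate number as a block the interaction calls were 777. Replicate 3 was also base-called with a later software version (RTA 1.6) than replicates 1 and 2 (RTA 1.5). NaOH shoot replicate 2 was an exception, with RTA 1.6 and a run header of its own. Experiment and software version can therefore not be told apart for replicate 3. With the RTA version as a term the interaction calls were 585.

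Named genes: among well measured genes called with and without H2O shoot replicate 2 and of 1 sign in the 3 numbers, the 8 most positive, the 8 most negative, 6 opposite-direction genes by smallest p, and 2 of each list by smallest p. Added were the 4 genes called in both tissues with the same sign whose interval of the difference lies closest to 0, and the genes at the limit of size. Lists rest on descriptions of 4001 genes printed in the study's supplements, all matched by gene ID. The ethylene, dhurrin and ribosomal lists were dropped for few described members, and the photosynthesis list had no well measured member among 24. The comparison, lists and tests were chosen with earlier results of these data known. Alternatives were another scaling, filter, tool or block, other limits, H2O with NaOH as controls, and leaving out libraries. DESeq2 1.42.0 and limma 3.58.1 were used for these. Coordinates are those of the files (sbi1).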

Additional observations from a re-analysis of the deposited data

Results flagged for a closer look

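The response to PEG differed between roots and shoots, by the test of that difference itself, in 543 well measured genes, and 13 of them changed in both tissues with opposite signs. The genes with the most positive log2 difference (root minus shoot) were Sb01g046730 (5.66), Sb09g001210 (5.59), Sb07g005780 (5.21), Sb01g007420 (5.19), Sb10g023140 (5.03), Sb07g005140 (4.68), Sb10g019360 (4.65) and Sb02g036370 (4.09). The most negative were Sb09g018420 (-7.04), Sb04g023920 (-6.2), Sb03g006690 (-5.95), Sb03g030050 (-5.27), Sb08g007150 (-4.87), Sb04g008300 (-4.64), Sb03g037720 (-4.48) and Sb10g021330 (-4.29). Of the opposite-direction genes the test also set apart Sb10g028570 (3.95), Sb02g025930 (3.74), Sb06g022230 (3.25), Sb01g010510 (-3.75) and Sb04g036570 (-2.67). Sb10g021330 passed the limit on reads in roots through 2 H2O root libraries only, and its root levels cannot be told from shoot RNA. Sb01g046730 passed it in roots through the PEG roots, where it was high. Of the most positive and most negative genes listed, only Sb10g019360 and Sb09g018420 had all 4 group means at 50 reads or more. The others, and Sb10g028570, Sb02g025930 and Sb01g010510, passed the limit in a tissue only through its higher group, so that their place is a description. Groups of 3 libraries were not examined for outliers by a test.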

How the results depend on the processing

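No gene among the 543, which were called on these same libraries, changed sign under any alternative, but their number depended on the setting. The interaction calls were 1529 with limma voom and sample weights, 1010 with no limit on the log2 difference, 274 among genes with at least 200 reads, and 44 to 1483 when libraries or whole replicates were left out, the ends being replicate 1 and H2O shoot replicate 2. The other scalings, filters and tools gave 510 to 785. Without H2O shoot replicate 2 (1483 calls) they were 977 with H2O and NaOH together as controls, 2856 with no limit on the difference and 751 at 200 reads. The opposite-direction genes were 21 with DESeq2, 22 with both controls, 26 with voom, 22 with the replicate block, and 1 to 26 when libraries or replicates were left out. The calls in roots ranged from 169 to 445 and those in shoots from 402 to 1475 over these omissions, and the calls in shoots were 1184 with voom. Of the ABA calls among the PEG calls, 452 were found with voom and 16 to 321 over the omissions. With the replicate number as a block the interaction calls were 777, and all 58 named genes other than those that respond alike stayed on the same side of the limits. Apart from the opposite-direction genes, the block moved none of the other counts over all well measured genes by over 1.5 times (the counts of several gene lists moved, as given with them). Without replicate 1 only 11 of these 58 stayed there, and 39 without replicate 3. The genes that respond alike had differences near 0 that turned sign. The Sb03g005240 interaction log2 was 0.0048 without H2O shoot replicate 2, and -0.2622 to 0.0048 over the omissions. The Sb02g003720 interaction log2 was 0.039 with voom, and -0.2516 to 0.1521 over the omissions. The Sb04g035220 interaction log2 was -0.118 with library sizes alone, and -0.0803 to 0.2868 over the omissions. The cause of these shifts was not tested. The fit with library sizes alone was added after the data were seen. Genes under 50 reads in a group limit what can be read: 124 of the 543 have such a group.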

Other observations

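Genes of phosphate supply were looked at together after their values had been seen, and no test of the group was made. Of 17 described and tested genes for acid phosphatases, phytase, glycerophosphoryl diester phosphodiesterases, phosphate transporters and SPX-domain proteins, which plants use to scavenge and sense phosphate, 7 fell and 1 rose under PEG in roots, while none fell and 1 rose in shoots. Of all 3990 described and tested genes, 6.34% fell and 12.1% rose in roots, and 7.89% fell and 15.4% rose in shoots. The interaction was called negative in 6 and positive in 1, against 7.27% and 5.94% of the described genes, and 10 of the 17 were well measured, with 4 of the negative calls and the positive one among them. Without H2O shoot replicate 2 the negative calls were also 6, but no longer included Sb01g020580 (adjusted p = 0.0617 by edgeR). The glycerophosphoryl diester phosphodiesterase gene Sb04g021010 had a log2 change of -2.99 in roots (difference -4.00). Its change of 1.01 in shoots was not called (adjusted p = 0.0609 by edgeR). The 1 rise called in shoots was that of Sb02g039350 (1.17). The acid phosphatase gene Sb03g033100 (-3.35 in roots, -0.26 in shoots) and the phytase gene Sb07g008300 (-3.32 in roots, -0.04 in shoots) had no change called in shoots. The phosphate transporter 1 gene Sb01g020580 (-2.29 in roots) and the SPX gene Sb01g023270 (-3.89 in roots) fell in roots and had at most 18.5 reads in any shoot library. Under ABA, 13 of the 17 fell and 1 rose in roots, against falls in 30.4% of the described genes. The secretory acid phosphatase Sb08g023000 rose under PEG in roots (2.46) and fell there under ABA (-1.21). It averaged 1088 reads in PEG roots and 197.2 in H2O roots, against 113134 in PEG shoots and 87229 in H2O shoots. How much of its low level in H2O roots was shoot RNA was not tested, so that the size of the rise is uncertain.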
